A study of Mus musculus with 4 samples.

Results

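The genes described here belong to the BCL2 family, which sets whether a cell lives or dies through the mitochondrial pathway of apoptosis. They were measured in naive CD4 T cells of mice whose T cells were targeted for deletion of furin, a protease that activates proproteins by cleavage. The list held 10 genes, and its members were every probe set that the array annotation maps to one of those symbols alone. This gave 29 of 45101 probe sets, for 9 of the 10 genes. Bax was not analysed here. Of the 29, 23 passed the filter on dim signals, a mean over the 4 arrays above 6.24 on the log2 scale defined below, which a constant signal of about 60.03 would give, and each of the 9 genes kept at least 1 probe set. The other 6 probe sets are described without a test.

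Cells were sorted as CD4+ CD62L+ CD44- from mice aged 10 to 11 weeks and profiled without culture on Affymetrix MOE 430 2.0 arrays, which carry short probes grouped into probe sets. The knockout group was CD4-cre fur flox/flox, in which Cre recombinase is driven by the CD4 promoter and so acts in the T cell lineage from the thymus on. The wild-type group consisted of littermates with fur flox/flox and no Cre, so both groups carried the floxed gene. Each group had 2 arrays, numbered 1 and 2, and the labels do not say that they came from separate animals, so a p-value reflects the spread between these samples alone, which may be technical.

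Members of the BCL2 family act on the outer membrane of mitochondria. Antiapoptotic members such as BCL2, BCL-XL and MCL1 bind and restrain the effectors BAX and BAK, which form pores that release cytochrome c and set off the caspases. BH3-only members carry the stress signals: BIM, BID and PUMA engage both sides, while BAD and NOXA mainly occupy particular antiapoptotic proteins. Resting naive T cells depend on interleukin 7, which maintains BCL2 and MCL1, and BIM is known to remove T cells that lose that support.

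The arrays resembled each other by number more than by genotype. Hybridisation controls, which do not come from the cells, were brighter on the arrays numbered 2, by 5.99-fold in wild type and by 5.82-fold in knockout. These folds come from the means of 18 probe sets on the log2 scale defined below. Differences are therefore also given within the arrays numbered 1 and within those numbered 2. Furin itself, read by 1 probe set, had 435.1 and 343.9 in wild type and 391.4 and 446.9 in knockout (arrays 1 and 2 in turn, the order used throughout). The groups overlapped, so this probe set, which may lie outside the deleted part, does not check the deletion, and every direction given here rests on the labels. The defining T cell markers Cd3d, Cd3e, Cd3g and Cd4 were bright on all 4 arrays, and no signal among the 9 T cell markers with a probe set fell below 2211. In bulk samples, fewer cells of a type and less RNA per cell cannot be told apart.

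Signals are MAS5 intensities on a linear scale. Differences are knockout minus wild type on the log2(signal + 15.3) scale, which understates changes of dim probe sets. In limma without a term for array number, 0 of 22518 probe sets passed an adjusted p of 0.05 (0%), and 145 had an unadjusted p below 0.05 (0.644%), 0 of them a member. With array number as a block 6 passed (0.0266%), none of them a member. The blocked fit leaves 1 residual degree of freedom per probe set. Its SEs and intervals therefore also draw on spread that limma shares over all probe sets tested, and are not each probe set's own spread. With the block, 8.42% of all probe sets tested had an unadjusted p below 0.05. Among the 22 member probe sets above the filter level in both groups, 3 did (13.6%, against 7.22% of all such probe sets), namely 2 of Bcl2 and 1 of Pmaip1. The remaining member probe set, 1 of Bid, passed the filter only through its knockout values and is not counted here. An exact permutation test of 2 arrays against 2 cannot give a two-sided p below 0.333, so no single value could pass by that route.

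**Figure D1:**
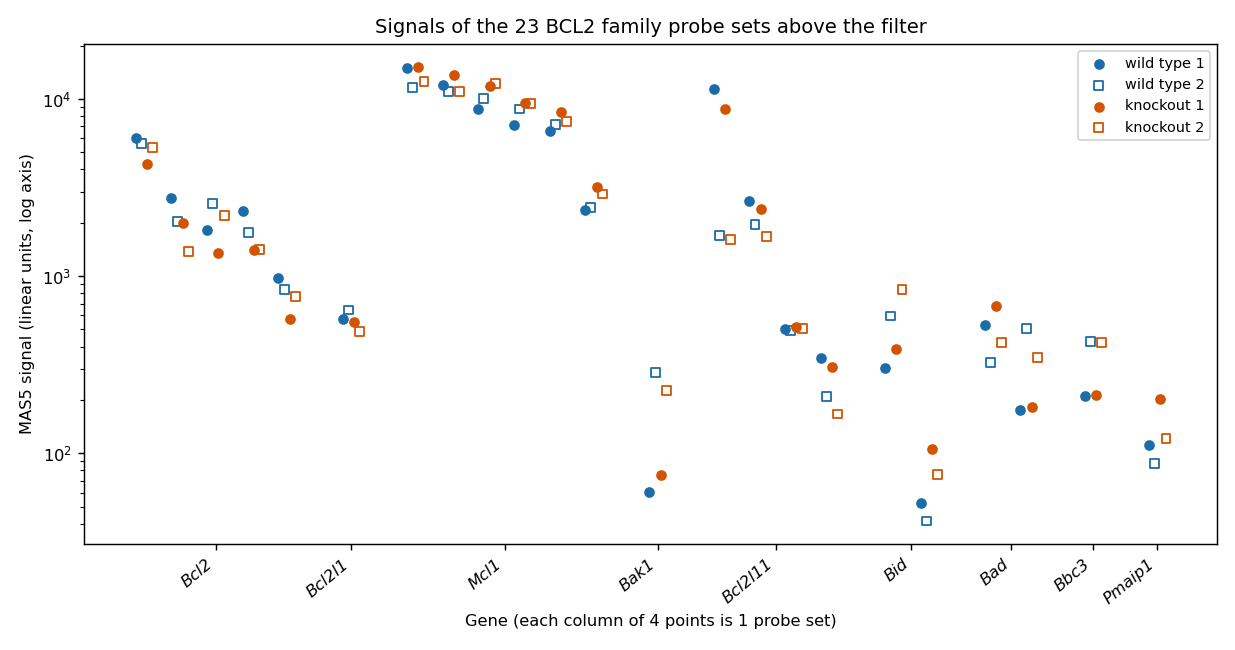
MAS5 signal (log axis) of the 23 member probe sets above the filter, 1 column of 4 points per probe set, ordered by gene; blue is wild type, orange is knockout, filled circles are arrays numbered 1 and open squares arrays numbered 2. Orange points lie below blue ones of the same shape in all 5 Bcl2 columns and above them in both Bid columns.

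Bcl2, the antiapoptotic gene that naive T cells are known to require, was lower in the knockout-labelled arrays at all 5 of its probe sets, within both array numbers. Its probe set with the highest mean (1457687_at) had signals of 6039.7 and 5588.1 in wild type and 4294.6 and 5324.6 in knockout. Both knockout values lay below both wild-type values, although knockout array 2 came within 5% of its wild-type counterpart, at 95.3%. The group means were 5814 ± 319 and 4809.6 ± 728 (SD, n = 2 each), and the difference was -0.28 (SE 0.33, 95% interval -1.15 to 0.59 in limma without the block, -0.80 to 0.24 with it).

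The widest Bcl2 difference was at 1443837_x_at, whose x suffix marks probe sets that share sequence with other transcripts, with 2329.7 and 1762 in wild type and 1404.9 and 1415.7 in knockout. The groups did not overlap, and the difference was -0.52 (SE 0.34, or 0.21 with the block). At 1440770_at the signals were 2751.7 and 2037.1 in wild type and 1991.3 and 1371.4 in knockout, and this was the Bcl2 probe set with the closest values within numbers, at -0.46 and -0.57. The blocked 95% intervals of these probe sets excluded 0, running from -1.03 to -0.0016 and from -0.99 to -0.044, but their adjusted p values in the blocked limma fit were 0.592 and 0.574.

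The probe set 1422938_at had 979.8 and 840.7 in wild type against 574.8 and 770.7 in knockout, again without overlap. At 1437122_at, with 1830.4 and 2571.4 against 1353.4 and 2204, the groups overlapped, since this probe set was brighter on arrays numbered 2 in both groups. Across the 5 probe sets the knockout signal was 58.7% to 73.9% of wild type on arrays numbered 1 and 67.3% to 95.3% on arrays numbered 2, so 4 of the 5 differed more on arrays numbered 1. Of all probe sets tested, 30.1% were lower within both numbers, and 9.54% had both knockout arrays below both wild-type arrays, as 4 of the 5 Bcl2 probe sets did. The 5 probe sets are annotated to 1 gene and were read in the same 4 samples, so they are not replicates of the condition.

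The promoter of Bcl2 is shown because this gene had the same direction at every probe set. The window is the RefSeq sequence of GRCm38.p6 at chr1:106714241-106714540 on the minus strand, from 250 bases before to 50 bases after the annotated start, and the capitals mark 7 matches to GGGCGG on either strand, the core of the GC box that SP1-like factors bind.
Bcl2: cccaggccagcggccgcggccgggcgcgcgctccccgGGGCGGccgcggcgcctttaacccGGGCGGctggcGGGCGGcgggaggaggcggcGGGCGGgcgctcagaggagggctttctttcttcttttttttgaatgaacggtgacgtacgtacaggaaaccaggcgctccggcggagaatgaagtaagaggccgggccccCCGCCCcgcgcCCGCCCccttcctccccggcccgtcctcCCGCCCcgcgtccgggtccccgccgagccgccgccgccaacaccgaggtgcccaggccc
GGGCGG occurs in 35.7% of all 32851 promoter windows of that length and in 9 of the 14 windows of the members, which cover 8 genes. The AP-1 letters TGANTCA (7.81% of all windows) and the STAT letters TTCNNNGAA (8.3%) occur in 0 of the 14 on either strand. These matches describe letters in the windows and not binding.

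Mcl1, a short-lived antiapoptotic protein also required by T cells, went the other way from Bcl2. Of its 6 probe sets 5 were higher in knockout within both numbers and 1 was split, and in 4 both knockout arrays lay above both wild-type arrays, as in 7.62% of all probe sets tested. At 1448503_at the signals were 8757 and 10108.4 in wild type and 11800.1 and 12271.1 in knockout, a difference of 0.35 (SE 0.32, or 0.19 with the block; blocked limma adjusted p = 0.668). At 1416881_at they were 2350.9 and 2430.2 against 3198.9 and 2906.1, a difference of 0.35 (SE 0.32, or 0.19 with the block).

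The Mcl1 differences were smaller at its other probe sets. The probe set with the highest mean, 1437527_x_at, had 14913.5 and 11656.4 in wild type and 15212.7 and 12575.4 in knockout, so the groups overlapped, and its difference was 0.07 (SE 0.35). The next, 1456243_x_at, was at 0.19 on arrays numbered 1 and -0.0026 on arrays numbered 2. Both carry the x suffix, as does 1456381_x_at, which differed by 0.25, while 1416880_at differed by 0.20. The knockout signal ran from 102% to 136% of wild type on arrays numbered 1 and from 99.8% to 121% on arrays numbered 2.

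Bcl2l1, which encodes BCL-XL, an antiapoptotic protein best known in activated T cells and thymocytes, had 1 probe set above the filter. Its signals were 570.6 and 643.2 in wild type and 547.5 and 484.1 in knockout. The groups did not overlap, with a difference of -0.23 (SE 0.33; -0.06 and -0.40 within numbers 1 and 2), and the blocked interval from -0.73 to 0.27 held 0. The 3 dim probe sets of Bcl2l1 gave no common reading. At 1420887_a_at the signals were 6.3 and 105.7 in wild type and 24.3 and 81.7 in knockout. At 1426050_at they were 27.3 and 39.8 against 18 and 10.9, and at 1426191_a_at 16.1 and 68.9 against 3.6 and 6.3, in both cases lower in knockout.

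Among the effectors, Bak1, which forms pores in the mitochondrial outer membrane, was measured by 1 probe set above the filter with 60.8 and 286.9 in wild type and 75.8 and 226.4 in knockout. Its level followed the array number and not the group. The genotype difference was -0.03 (SE 0.85, or 0.22 with the block), made of 0.26 on arrays numbered 1 and -0.32 on arrays numbered 2. The dimmer probe set had 2.7 and 39.8 against 5.3 and 34.3, with the same split.

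Bid and Pmaip1, both BH3-only genes, were the members with the highest differences. BID is cut by caspase 8 and granzyme B and then acts on mitochondria. The Bid probe set with the highest mean, 1417045_at, had 303.1 and 594.8 in wild type and 390 and 841.7 in knockout. It was higher in knockout within both numbers, by 0.35 and 0.49, but the groups overlapped because arrays numbered 2 were brighter. The difference was 0.42 (SE 0.56, or 0.19 with the block, where the 95% interval was -0.05 to 0.89). It turned to -0.050 without wild-type replicate 1 and to -0.12 without knockout replicate 2. With an array left out, genotype and array number are not balanced, and this probe set was brighter by 1.01 on arrays numbered 2. These sign changes therefore do not bear on the differences within numbers.

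The second Bid probe set, 1447873_x_at, again of the kind that shares sequence with other transcripts, differed by 0.77. Its signals were low, at 52.1 and 41.4 in wild type and 106.1 and 75.7 in knockout, which is 2.04-fold and 1.83-fold on the linear scale. The groups did not overlap, but the wild-type mean, 5.95 on the log2 scale, lay below the filter level, so this probe set was kept only because its knockout values were higher, and no test is read from it. The third, 1448560_at, was too dim on arrays numbered 1 to read, with 20.1 and 136.6 in wild type and 2.8 and 168.6 in knockout.

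Pmaip1 encodes NOXA, a BH3-only protein that mainly occupies MCL1. Its only probe set had signals of 110.6 and 87.1 in wild type and 202.9 and 120.6 in knockout. Both knockout arrays lay above both wild-type arrays, by 0.79 on arrays numbered 1 and 0.41 on arrays numbered 2, although they overlapped after quantile normalization. The difference was 0.60 (SE 0.40, or 0.20 with the block; blocked limma unadjusted p = 0.0287 and adjusted p = 0.565).

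Bcl2l11, which encodes BIM, had 4 probe sets above the filter, and the blocked 95% interval of the genotype difference held 0 at all of them. At 1435448_at the signals were 2644.9 and 1950.5 in wild type and 2385.7 and 1667.2 in knockout, a difference of -0.19 (SE 0.38, or 0.19 with the block). At 1435449_at they were 505.7, 492.4, 514.7 and 506 in the same order, the least variable of the members, with a difference of 0.03 and a blocked interval from -0.44 to 0.50. At 1456006_at they were 345.6 and 208.1 against 308.7 and 166.5. The dim probe set 1426334_a_at had 30.8 and 95.4 against 39 and 85.1.

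The Bcl2l11 probe set with the highest mean, 1456005_a_at, behaved unlike the others. It had 11381 in wild type and 8754.8 in knockout on arrays numbered 1, and 1699.2 and 1605.7 on arrays numbered 2. The difference of arrays numbered 2 minus those numbered 1 was -2.58 on the log2 scale (blocked limma adjusted p = 0.00347), against -0.03 to -0.76 at the other 3. Its suffix marks probe sets that read several transcripts of 1 gene. Within numbers its genotype differences were -0.38 and -0.08, so the choice of probe set changes the apparent level of Bcl2l11 across arrays far more than its genotype difference.

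Bad, whose protein binds BCL2 and BCL-XL when survival kinases leave it unphosphorylated, gave opposite readings at its probe sets. At 1416582_a_at the signals were 532.3 and 325.5 in wild type and 682 and 423.7 in knockout, higher in knockout by 0.35 and 0.37 within numbers. At 1416583_at they were 175 and 507.5 against 181.2 and 346.7, or 0.05 and -0.53. The 2 also moved in opposite directions with array number, by -0.68 and 1.17.

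Bbc3, which encodes PUMA, a BH3-only protein induced by p53 and by loss of cytokines, had 210.8 and 428.9 in wild type and 213.4 and 420.4 in knockout. These values differed between numbers and hardly between groups. The difference was -0.0057 (SE 0.54, or 0.19 with the block). Its 95% interval ran from -1.40 to 1.39 without the block and from -0.47 to 0.46 with it, and both hold changes in either direction.

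**Figure D2:**
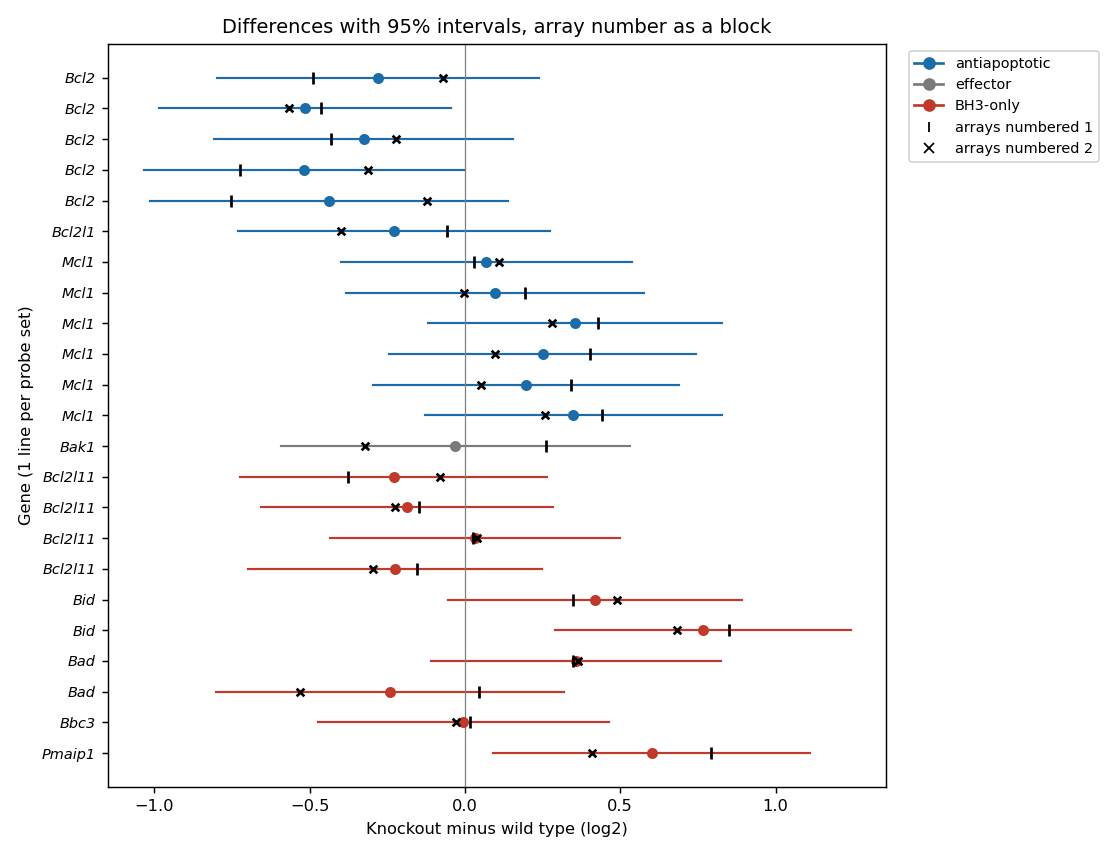
Knockout minus wild-type difference (log2) of the 23 member probe sets above the filter, 1 line each, with its 95% interval in limma with array number as a block; vertical ticks mark arrays numbered 1, crosses those numbered 2, and blue, grey and red mark antiapoptotic, effector and BH3-only genes. All 5 Bcl2 points lie below 0, from -0.52 to -0.28, and all 6 Mcl1 points above it, from 0.07 to 0.35. The point furthest to the right is Bid at 1447873_x_at. It passed the filter only through its knockout values, and no test is read from its interval.

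BIM and PUMA are known targets of the FOXO factors, which act when growth factor and cytokine signals drop, and the promoters of Bcl2l11 and Bbc3 are shown because only theirs, among the members' 14 windows, hold the FOXO core TGTTTAC on either strand. The windows are RefSeq sequences of GRCm38.p6, chr2:128125788-128126087 and chr7:16310011-16310310, both on the plus strand, and the capitals mark the core.
Bcl2l11: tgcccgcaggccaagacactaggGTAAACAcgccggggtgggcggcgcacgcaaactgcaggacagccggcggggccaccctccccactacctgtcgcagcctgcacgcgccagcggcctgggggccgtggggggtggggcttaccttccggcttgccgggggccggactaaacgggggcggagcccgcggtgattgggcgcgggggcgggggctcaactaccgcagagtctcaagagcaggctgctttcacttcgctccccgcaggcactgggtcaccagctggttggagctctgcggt
Bbc3: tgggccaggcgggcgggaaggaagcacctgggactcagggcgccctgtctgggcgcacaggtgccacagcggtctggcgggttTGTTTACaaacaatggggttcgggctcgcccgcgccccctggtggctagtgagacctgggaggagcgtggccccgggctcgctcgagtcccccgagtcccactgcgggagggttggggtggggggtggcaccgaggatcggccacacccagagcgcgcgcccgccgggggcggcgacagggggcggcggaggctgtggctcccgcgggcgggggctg
The core begins 227 bases before the start of Bcl2l11 and 167 bases before that of Bbc3, and 3.65% of all promoter windows hold it. Neither gene passed the test between genotypes, as given above.

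Set side by side by role, neither the antiapoptotic nor the BH3-only genes moved as a group. At the probe set of highest mean of each gene, 1 of 3 antiapoptotic genes was higher and 2 lower within both numbers. Of the 5 BH3-only genes 3 were higher and 1 lower. With each gene represented by its probe set of highest mean, the median difference was -0.23 over the 3 antiapoptotic genes and 0.36 over the 5 BH3-only genes, against -0.02 over all probe sets tested. Within arrays numbered 1 these medians were -0.06 and 0.35, and within arrays numbered 2 they were -0.07 and 0.37. Each of these medians is the value of 1 gene. Over all arrays these were Bcl2l1 and Bad, whose other kept probe set differed by -0.24. On arrays numbered 1 they were Bcl2l1 and Bid, and on arrays numbered 2 Bcl2 and Bad. With the mean of all probe sets of a gene in place of its brightest the medians became -0.42 and 0.06, dim probe sets included. With the mean of the kept probe sets alone, a setting added after the data were seen, they were -0.23 and 0.06.

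The balance was also taken as the change of each antiapoptotic gene minus that of each of the 6 proapoptotic genes. For Bcl2 this was below 0 within both numbers against 4 of 6, reaching -1.28 and -0.48 against Pmaip1 and -0.84 and -0.56 against Bid. For Bcl2l1 it was below 0 in both against 5 of 6. Mcl1 lay below 3 of the 6 and above 2, Bcl2l11 and Bbc3, with 0.41 and 0.19 against Bcl2l11. For Bcl2 against Bcl2l11 the values were -0.11 and 0.01.

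Over the 23 member probe sets, 9 (39.1%) were lower in knockout within both numbers and 10 (43.5%) were higher, where 30.1% and 25.3% of all probe sets tested were. The groups did not overlap in 12 of the 23, with 7 above and 5 below, against 17.2% of all probe sets. The higher counts include the Bid probe set that passed the filter only through knockout. Bcl2 and Mcl1 supply 11 of the 23, so these counts mostly repeat the readings of a pair of genes.

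**Figure D3:**
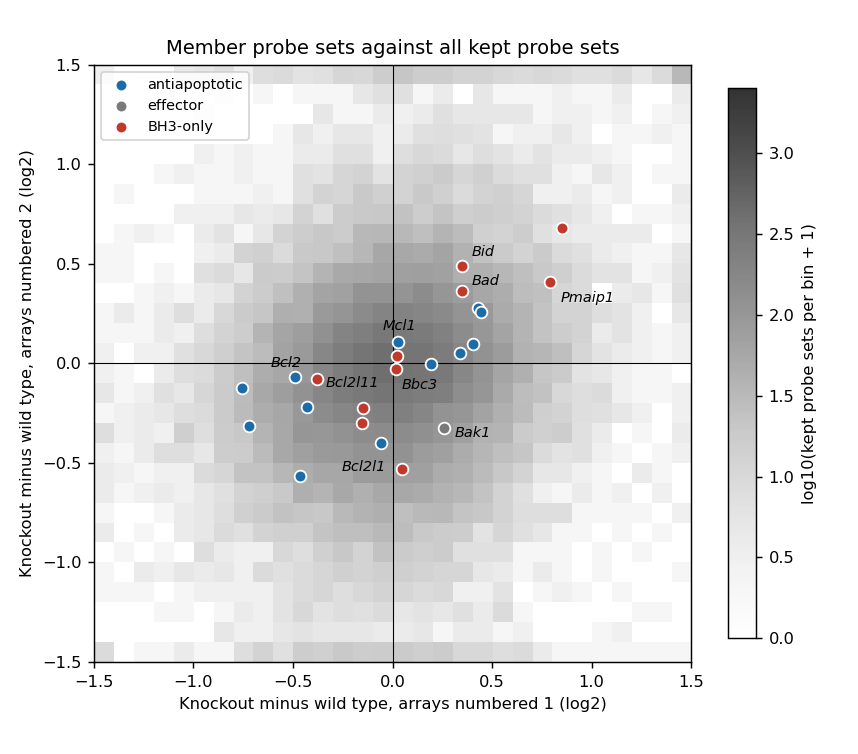
Knockout minus wild-type difference (log2) on arrays numbered 1 (horizontal) and numbered 2 (vertical) for the 23 member probe sets, coloured by role, over the density of all 22518 probe sets tested (grey, log10 count per bin; edge bins also hold values beyond the axes); a name stands beside the probe set of highest mean of each gene. The Bcl2 probe sets fall in the lower left and the Bid and Pmaip1 probe sets in the upper right, all inside the cloud of other probe sets.

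Member probe sets differed between array numbers at a share near that of all probe sets tested. In limma with both terms, 7791 of 22518 probe sets (34.6%) differed between arrays numbered 2 and 1, and 0 with no filter on dim probe sets. Of the member probe sets 7 of 23 (30.4%) did, 4 higher and 3 lower on arrays numbered 2. They were 7 of the 11 proapoptotic probe sets and 0 of the 12 antiapoptotic ones. Of those 12, 5 read Bcl2 and 6 read Mcl1, so probe sets are not separate genes here and no contrast of roles is read from this. The 11 include the Bid probe set that passed the filter only through knockout. Bak1 was higher by 1.70 (adjusted p = 0.00689), Bid at 1417045_at by 1.01 (adjusted p = 0.0150) and Bbc3 by 0.95 (adjusted p = 0.0168) on arrays numbered 2 in this limma fit, each more than its genotype difference.

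Genes whose levels over the 4 arrays ran closest to those of Bcl2, by Pearson correlation among 3156 genes with a range of at least 1 on the log2 scale, were Sv2a (0.9933), Zhx2 (0.9915) and Twsg1 (0.9802). Zhx2 had signals of 596.7 and 548.8 in wild type and 284.7 and 488.5 in knockout. For Bcl2l11 at 1456005_a_at they were Cd1d1, Ago1 and Osbpl11, each at 0.9999 or more. These correlations rest on 4 arrays that share their number, and with so few points many genes reach high values.

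Other genes of the pathway were taken from 6 lists, with 71 genes above the filter when each is counted once. In limma 0 of the 71 passed, whether or not array number was a block. Their median difference was -0.02, with 20 higher and 17 lower within both numbers. Of the 8 measured relatives of BCL2, 2 were higher and 3 lower within both. Bcl2l2, which encodes the antiapoptotic BCL-W, had 118.8 and 170.9 in wild type and 107.8 and 57.5 in knockout, a difference of -0.74 (SE 0.43; -0.12 and -1.35). Bcl2l13 was at -0.39 (-0.31 and -0.47) and Bcl2l12 at 0.23 (0.44 and 0.03).

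Downstream of the mitochondria, 6 of 16 apoptosome and caspase genes were higher and 4 lower within both numbers. Cycs, which encodes cytochrome c, had 6334.7 and 9134 in wild type and 9068 and 10822.2 in knockout, a difference of 0.38 (SE 0.37; 0.52 and 0.24). Htra2, a mitochondrial protease that antagonises caspase inhibitors once released, was at -0.43 (-0.32 and -0.53), and Casp9, the caspase of the apoptosome, at -0.33 (-0.42 and -0.24). Of 11 death receptor genes 3 were higher and 4 lower within both. Fasl, the ligand of the death receptor FAS, had 550.9 and 317.1 against 398 and 203.2, a difference of -0.53 (-0.45 and -0.61). Tnfsf10, the death ligand TRAIL, was at 0.35 (0.49 and 0.21), and Cflar, an inhibitor of caspase 8 activation, at 0.23 (0.44 and 0.01).

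Among 9 p53 genes 4 were higher and 1 lower within both numbers. Sesn2, a stress-induced gene, was at 0.96 from dim signals of 92.8 and 31.6 in wild type and 96.7 and 155.9 in knockout, with only 0.05 on arrays numbered 1. Zmat3 was at 0.26 (0.20 and 0.32) and Aen, an apoptosis-enhancing nuclease, at 0.20 (0.25 and 0.15). Of 10 genes for the turnover of MCL1 and BIM proteins, 1 was higher and 1 lower within both. Dynll1, a dynein light chain that binds BIM, was at 0.28 (0.43 and 0.14) and Mapk9, which encodes the kinase JNK2, at -0.11 (-0.04 and -0.19).

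The list of interleukin 7 and gamma-c cytokine signalling, the pathway known to maintain BCL2 in naive T cells, held 18 measured genes, with 5 higher and 4 lower within both numbers and a median of -0.02. Il7r, the interleukin 7 receptor chain, had 18091.1 and 19444.9 in wild type and 15154 and 15938.5 in knockout. The groups did not overlap, and the difference was -0.27 (SE 0.32, or 0.19 with the block; -0.26 and -0.29 within numbers). Pik3r1, a regulatory subunit of PI3 kinase, had 6182.8 and 3060.5 against 3903.1 and 1794.1, a difference of -0.71 (SE 0.58, or 0.19 with the block). Foxo1, a transcription factor that maintains Il7r in naive T cells, was at -0.40 (-0.45 and -0.36), and Stat5b at -0.15 (-0.23 and -0.06).

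The highest genes of this list were Il15ra, which presents interleukin 15, and Socs3, a feedback inhibitor of cytokine receptors. Il15ra had 168.4 and 74.4 in wild type and 296.6 and 350.3 in knockout, a difference of 1.40 (SE 0.47, or 0.33 with the block). Socs3 had 5109 and 3962.3 against 8847.6 and 10987.6, a difference of 1.13 (SE 0.35, or 0.24 with the block). The others higher within both numbers were Socs1 at 0.42 (0.28 and 0.57), Jak3 at 0.42 (0.50 and 0.35) and Il2rb at 0.29 (0.11 and 0.47). Il15ra, Socs3 and Pik3r1 were the 3 of the 71 pathway genes that passed limma with the block and a trended prior variance (adjusted p = 0.0135, 1.05e-05 and 0.00789), a setting that called 1.15% of all probe sets and 0 of the 23 member probe sets. The same setting called 6 of 13 neutrophil and myeloid markers and 2 of 9 B cell markers above the filter, all higher in knockout. Of 7 CD8 T and NK cell markers above the filter it called 2 as higher and 1 as lower. Among the 6, S100a9, Ngp and Camp passed the filter only through their knockout values, so no test is read from them. Marker values follow below, and the part of these cell types in the Il15ra, Socs3 and Pik3r1 values was not tested.

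**Figure D4:**
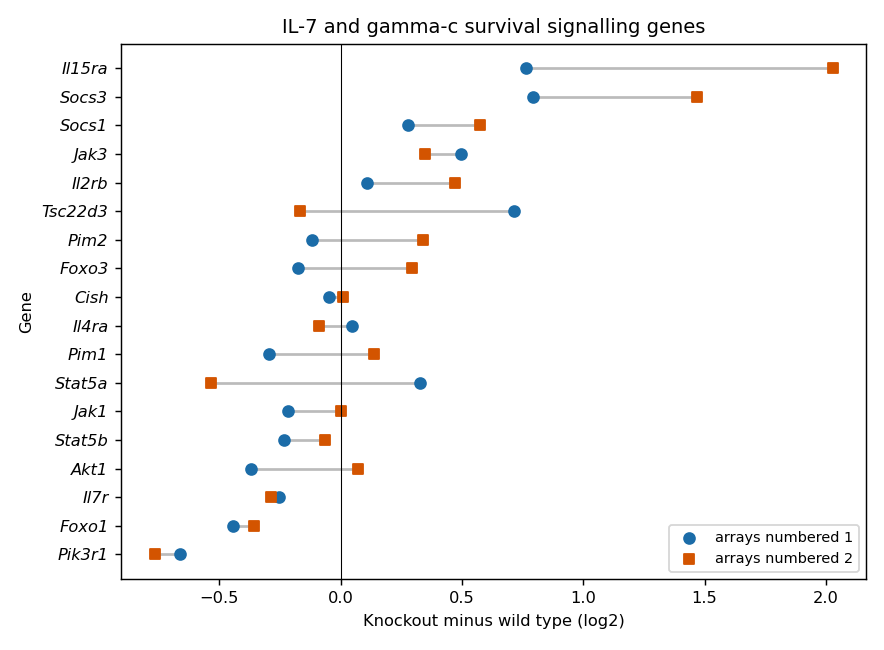
Knockout minus wild-type difference (log2) of the 18 measured genes of interleukin 7 and gamma-c cytokine signalling, ordered by their mean difference, with circles for arrays numbered 1 and squares for arrays numbered 2. Pik3r1, Foxo1 and Il7r lie below 0 on both, and Il15ra and Socs3 furthest above it.

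Among markers of cells outside the sort, those of neutrophil and myeloid cells and of B cells were mostly higher in the knockout-labelled arrays. Of 19 neutrophil and myeloid markers with a probe set, 17 were higher and 0 lower within both numbers, counted without the filter. Of the 13 above the filter, 5 had a wild-type mean below it, and the median of the 13 was 0.99 on arrays numbered 1 and 2.33 on arrays numbered 2. The summed signal of all 19 was 1687 and 4485 in wild type and 2845 and 17243 in knockout. Of 12 B cell markers with a probe set 9 were higher and 0 lower within both, and the 9 above the filter had medians of 0.23 and 1.47. The summed signal of all 12 was 12741 and 19515 in wild type and 11641 and 31327 in knockout. Ighm alone had 11655.7 and 14964.6 in wild type and 10033.3 and 15221.3 in knockout, and without it the sum was 1085 and 4550.1 in wild type and 1607 and 16106 in knockout. No marker of either list was at 0. S100a8, of neutrophils, was at 2.50 and Ngp at 2.53, and Cd74 and H2-Aa, of antigen-presenting cells, at 1.54 and 1.37.

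Of 7 CD8 T and NK cell markers above the filter 4 were higher and 2 lower within both, with Gzma at 1.78 and Ctsw at -1.60. The 10 with a probe set had a summed signal of 4671 and 6550 in wild type and 3619 and 4169 in knockout. Ctsw alone had 2412.8 and 4114.3 in wild type and 851.1 and 1240.2 in knockout. Without Ctsw the sum was higher in knockout within both numbers. Counted without the filter, 6 of the 10 were higher and 3 lower within both. The summed signal of the 9 T cell markers was 71565 and 134215 in wild type and 66453 and 128312 in knockout, with 0 higher and 3 lower within both numbers, Ccr7 at -0.29 among them. The 2 erythroid and platelet markers above the filter had a median of -0.33, and Itga2b was at -0.19. The part of other cells in the BCL2 family values was not tested.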

How the data were processed

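The authors deposited linear MAS5 intensities, 1 per probe set and array. The tool is named in the submitters' processing notes; no version or setting is given there. The table has no detection calls. Of 45101 probe sets 64 controls were left out. Names came from the GEO platform annotation: 34945 probe sets had 1 symbol, 932 several and 9160 none, and 34741 were updated through their Entrez identifier in RefSeq GRCm38.p6. Signals were transformed as log2(signal + 15.3), the 25% quantile of all values, and the 22518 probe sets above the median of mean log2 values were fitted with limma 3.58.1 in R 4.3.3 (two-sided, Benjamini-Hochberg, threshold 0.05). A member was represented by its kept probe set of highest mean.

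The labels give no meaning to the array numbers. Same-numbered arrays deviated together (correlation 0.80 across probe sets), and the hybridisation controls followed the number, so values within numbers and with the number as a block are given. Pathway lists give up to 3 genes, and marker lists up to 2, of largest difference with the same sign within both numbers; Il7r was named as a T cell marker, and Ighm, Foxo1, Stat5b, Socs1, Jak3, Il2rb and the T cell markers checked at the start outside this rule, after their values were seen. Members and lists were chosen with earlier results of these data known. Alternatives covered the pseudocount, filter, normalization, block, prior, probe set choice and each array left out.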

Additional observations from a re-analysis of the deposited data

How the results depend on the processing

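The number of arrays, 2 per group, limits every value. Without a block, 0 probe sets were called between genotypes under each pseudocount, filter, normalization and prior tried and with any 1 array left out (0 to 0); the array number as a replicate block gave 6, and with a trended prior 260. No call of a member changed. Calls between array numbers fell from 7791 to 0 with no filter; the cause was not tested. The mean signals of Bid at 1447873_x_at lay near the filter level, as did Bak1 on arrays numbered 1. With a filter at the 75% quantile, Bak1, Bbc3 and Pmaip1 were not tested, and the effector median had no value.

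The antiapoptotic median, -0.23, moved to -0.21 with the pseudocount at the median of all values, to -0.21 with quantile normalization, to -0.20 with median centring and to -0.42 with the mean of all probe sets, and ranged from -0.22 to -0.13 with 1 array left out. The BH3-only median, 0.36, moved to 0.32, 0.38, 0.39 and 0.057 under the same settings in that order, also to 0.057 with the mean of the kept probe sets, and ranged from 0.26 to 0.70. The effector median, which is Bak1 alone, ranged from -1.03 to 0.96. Median centring turned Bak1 to 0.00051 and Bbc3 to 0.026, and quantile normalization turned Bbc3 to 0.020. Bak1, Bbc3 and Mcl1 changed sign when either wild-type replicate 2 or knockout replicate 1 was dropped, and Bid and Bcl2l11 when either of the other arrays was. With 1 array left out, Bbc3 ranged from -0.49 to 0.48, Bcl2l11 from -1.60 to 1.14, Bid from -0.12 to 0.96 and Mcl1 from -0.11 to 0.25. Bcl2 stayed between -0.43 and -0.13, Bcl2l1 between -0.31 and -0.14, Bad between 0.015 and 0.70 and Pmaip1 between 0.26 and 0.94. With an array left out, genotype and array number are no longer balanced. All 5 Bcl2 probe sets were lower within both numbers under each scaling tried, and 3 or 4 of the 5 did not overlap between groups.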
